A study of Homo sapiens with 10 samples.

Results

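Genes of the hypoxia response and of glycolysis were examined in spheroids of a breast cancer cell line with and without an intact SAMHD1 gene. The list named 46 genes, targets of the hypoxia-inducible factors (HIFs), the enzymes of glycolysis and the HIF alpha subunits themselves. Of these, 44 were among the 13920 genes of the deposited count table. The members CA9 and ANGPTL4 had no row in it and are not analysed here. The rule used gene names and no measured value, although the members were chosen with earlier results of these data known.

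The libraries came from spheroids labelled T47D, a line derived from a luminal breast tumor, collected on day 4 of culture. WT cells carried unedited SAMHD1, and A1 and A2 were each 1 clone in which CRISPR-Cas9 had been directed at exon 5 of SAMHD1, the gene of a dNTP hydrolase. No drug or oxygen treatment is named for any of the groups. WT and A1 were sequenced in experiments 10, 11, 15 and 16 and A2 in experiments 15 and 16, which gives 10 libraries, named here by group and experiment number (WT 10, A1 15). The study's methods call the samples biological duplicates, and the labels do not say whether the experiments used separate cultures, so p-values measure the spread between these libraries, part of which may be technical. The comparisons asked whether the members differed between the clones and WT within experiments 15 and 16 and within experiments 10 and 11, between the clones, and between WT of the experiment pairs.

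Total counts lay between 40077369 and 51311482 per library, and the 44 members held 1.93% (WT 11) to 2.35% (A2 15) of them. The lowest count of any member in a library was 19, for SLC16A3. Mitochondrial genes took 7.79% (WT 10) to 13.9% (A1 15) of the counts. SAMHD1 had 49.8 to 56.4 CPM (counts scaled to library size by TMM) in the 4 WT libraries, 22.5 and 23.0 CPM in A1 10 and A1 11, 6.44 and 6.15 CPM in A1 15 and A1 16, and 23.6 and 20.2 CPM in A2 15 and A2 16, although counts per gene do not show the edit itself. Markers of the labelled line were mixed. ESR1, the estrogen receptor that defines luminal cells, had 0.183 to 1.59 CPM, EPCAM 0.348 to 1.78 CPM, CDH1 0.684 to 2.16 CPM and KRT8 3.10 to 9.07 CPM, and KRT19 was not among the listed genes. Of the same list KRT18 had 36.3 to 60.3 CPM, GATA3 15.4 to 24.8 CPM, PGR 15.4 to 20.7 CPM and FOXA1 14.1 to 26.8 CPM. Of the markers of other cells VIM had 1175 to 1518 CPM, while VWF had 0.799 to 1.69 CPM and CD68 1.23 to 2.12 CPM. The collagen genes of that list had 5.91 to 11.4 CPM (COL1A1) and 1.66 to 17.9 CPM (COL3A1). COL3A1 was lower in A1 and A2 than in WT of experiments 15 and 16 (log2 −1.66 and −2.16, edgeR adjusted p = 6.8e-06 and 3.6e-07), and its part in the member differences was not tested. The low ESR1, EPCAM and CDH1 and the high VIM go against the label, PGR, GATA3, FOXA1 and KRT18 were detected in every library, and the libraries are called by their labels only.

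Cells adjust to low oxygen through HIF1A and EPAS1, the alpha subunits that are hydroxylated by the EGLN enzymes and degraded when oxygen is present, and that otherwise pair with ARNT and bind DNA at the core sequence ACGTG or GCGTG. Their targets raise glucose uptake and glycolysis, divert pyruvate to lactate, and act in blood vessel growth, mitophagy, lipid storage and collagen modification. Spheroids are a usual model of this response because oxygen and glucose reach the inner cells by diffusion. In bulk RNA, a change in the share of hypoxic cells and a change of RNA per cell cannot be told apart.

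The glycolytic enzymes were the most abundant members when levels were scaled by transcript length (CPM per kb of the MANE Select transcript). GAPDH, which makes 1,3-bisphosphoglycerate, was at 4035 ± 164 CPM per kb over the 4 WT libraries (SD, n = 4). ENO1, the broadly expressed enolase, followed at 1662 ± 153, ALDOA at 1115 ± 108, LDHA, which reduces pyruvate to lactate, at 1005 ± 159, TPI1 at 854 ± 87.9 and PKM at 667 ± 47.4 CPM per kb. ALDOA and LDHA overlapped between WT libraries (1006 to 1253 and 768 to 1095 CPM per kb), so their order is within the spread. Of the isoform pairs, ENO2 stood at 43.1 ± 8.53 beside ENO1, ALDOC at 26.04 ± 4.617 beside ALDOA, HK2 at 35.7 ± 3.497 beside HK1 at 63.2 ± 5.88, and the glucose transporter SLC2A3 at 10.4 ± 2.85 beside SLC2A1 at 62.8 ± 3.61 CPM per kb. HIF1A was at 44.7 ± 3.67 and EPAS1 at 3.37 ± 0.462 CPM per kb. SLC16A3 (gene 9123, chromosome 17 from 82217934 to 82240086), the monocarboxylate transporter that exports lactate, was the lowest member at 0.690 ± 0.166 CPM per kb.

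**Figure D1:**
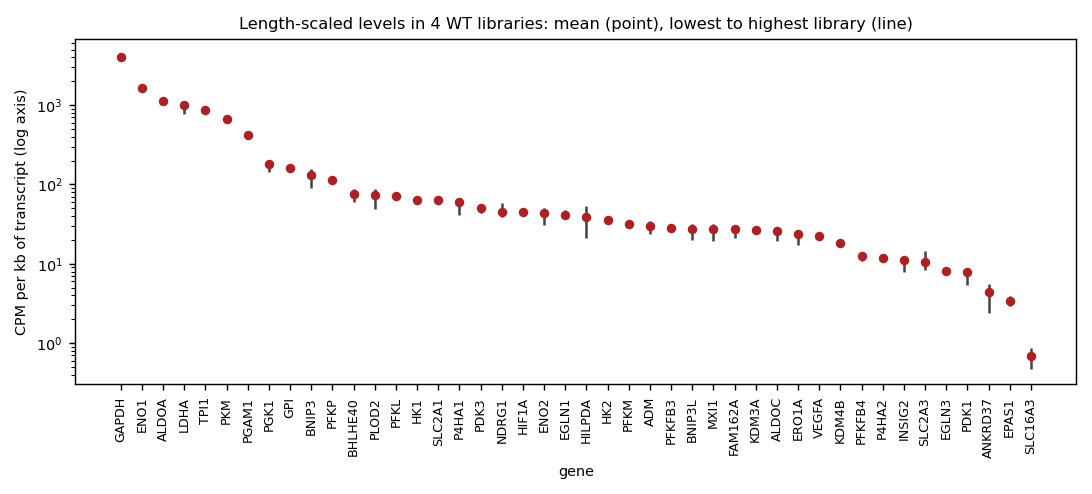
Length-scaled level (CPM per kb of transcript, log axis) of 44 members in the 4 WT libraries, with the mean as a point and the lowest to highest library as a line. The members spanned from 4035 (GAPDH) to 0.690 CPM per kb (SLC16A3), with HILPDA, ANKRD37, PLOD2 and BNIP3 among those with a wide range between libraries.

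Promoter stretches are printed for ENO2, BNIP3 and SLC2A1, which were called in comparisons below, and for LDHA, which was called in none, to set the core HIF motif beside their values. RefSeq promoters (GRCh38.p14) were matched for 39 of 44 members, and the 250 bases before the transcript start that the table uses, which for some members (such as GPI, GAPDH and SLC16A3) lies inside the gene, were searched for ACGTG and GCGTG on both strands. ACGTG was found in 19 of the 39 members (48.7%), in 23.3% of 11366 genes of the table and in 18.7% of all 27305 promoters. GCGTG was found in 18 of the 39 members (46.2%), in 45.4% of the genes of the table and in 31.9% of all promoters. A match of 1 motif may share bases with a match of the other, and the palindrome CACGTG counts as ACGTG on both strands. HILPDA and VEGFA were not matched. All 250 bases of the ENO2 window overlapped annotated exons, and only 30 bases of it are printed. In the stretches below, capitals mark ACGTG or GCGTG read on either strand, and positions run 5′ to 3′ on the strand of the gene.
ENO2, chr12:6914450-6914479, plus strand: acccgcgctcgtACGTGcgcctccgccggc
BNIP3, chr10:131981968-131982067, minus strand: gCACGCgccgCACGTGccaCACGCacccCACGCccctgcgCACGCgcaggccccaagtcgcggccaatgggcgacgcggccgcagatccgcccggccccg
LDHA, chr11:18394460-18394559, plus strand: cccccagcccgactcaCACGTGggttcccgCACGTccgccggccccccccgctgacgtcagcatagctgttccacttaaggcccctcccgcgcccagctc
SLC2A1, chr1:42958894-42958993, minus strand: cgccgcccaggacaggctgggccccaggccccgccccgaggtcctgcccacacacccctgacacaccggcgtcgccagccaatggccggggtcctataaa
ENO2 (gene 2026, chromosome 12 from 6914580 to 6923697) had 1 match in its window and BNIP3 (gene 664, chromosome 10 from 131967684 to 131981923) had 2 of ACGTG and 4 of GCGTG. LDHA (gene 3939), which was not called in either clone, had 5 of ACGTG, those on both strands of a palindrome counted apart, of which 3 lie in the printed stretch. SLC2A1 (gene 6513), which was called in both clones, had none. A match is a description of the letters and says nothing of binding in these cells.

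The members were not evenly distributed along the libraries. WT 11 was the lowest of the 10 libraries for 27 of 44 members (61.4%), against 20.3% of all 13920 genes. It was the lowest of the 4 WT libraries for 31 of 44 (70.5%, all genes 32.7%). From WT 10 to WT 11 the median difference of the members was −0.37 on the log2 scale, with 39 of 44 lower in WT 11, while the median of all genes was −0.0027. In the other groups the median difference between the libraries of a pair lay between −0.059 (A1 11 minus A1 10) and 0.023 (A2 16 minus A2 15). WT 11 had 49434657 counts, a TMM factor of 0.992 and 8.41% mitochondrial counts, each within the range of the other libraries. WT 11 also stood apart over the whole table, being the highest of 10 libraries for 19.6% of all genes, and the median absolute log2 difference of all genes was 0.15 between WT 10 and WT 11 against 0.083 to 0.10 in the other pairs. The summed level of 5 listed markers of stromal, endothelial and immune cells, nearly all of it VIM, was highest in WT 11 (1548 CPM, other libraries 1190 to 1346), and the part of this in the member differences was not tested.

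The difference within WT ran through targets of several roles and left part of glycolysis out. LDHA had 2453 CPM in WT 10 and 1720 CPM in WT 11, beside 2410 and 2426 CPM in WT 15 and WT 16. PLOD2, a lysyl hydroxylase of collagen, had 297 CPM in WT 10, 182 CPM in WT 11, 306 CPM in WT 15 and 324 CPM in WT 16. P4HA1, a subunit of collagen prolyl hydroxylase, had 180, 114, 183 and 185 CPM in the same order. PDK1, a kinase that inhibits pyruvate dehydrogenase, had 124, 75.3, 118 and 122.9 CPM. For each of these genes WT 11 lay below the other WT libraries, which were close together. ANKRD37 had the largest difference, −0.94 on the log2 scale, at 3.69 and 1.90 CPM. By contrast PFKL (198 and 226 CPM), PKM (1616 and 1644), TPI1 (1037 and 1066), ALDOA (1649 and 1738) and KDM4B (106 and 114) were not lower in WT 11. A1 11 was below A1 10 for LDHA as well, at 2201 against 2499 CPM, and within A1 the differences of the members ran from −0.27 (ALDOC) to 0.54 (SLC16A3), with 36 of 44 lower in A1 11. Since WT 11 is a single library, this is a description without a test.

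**Figure D2:**
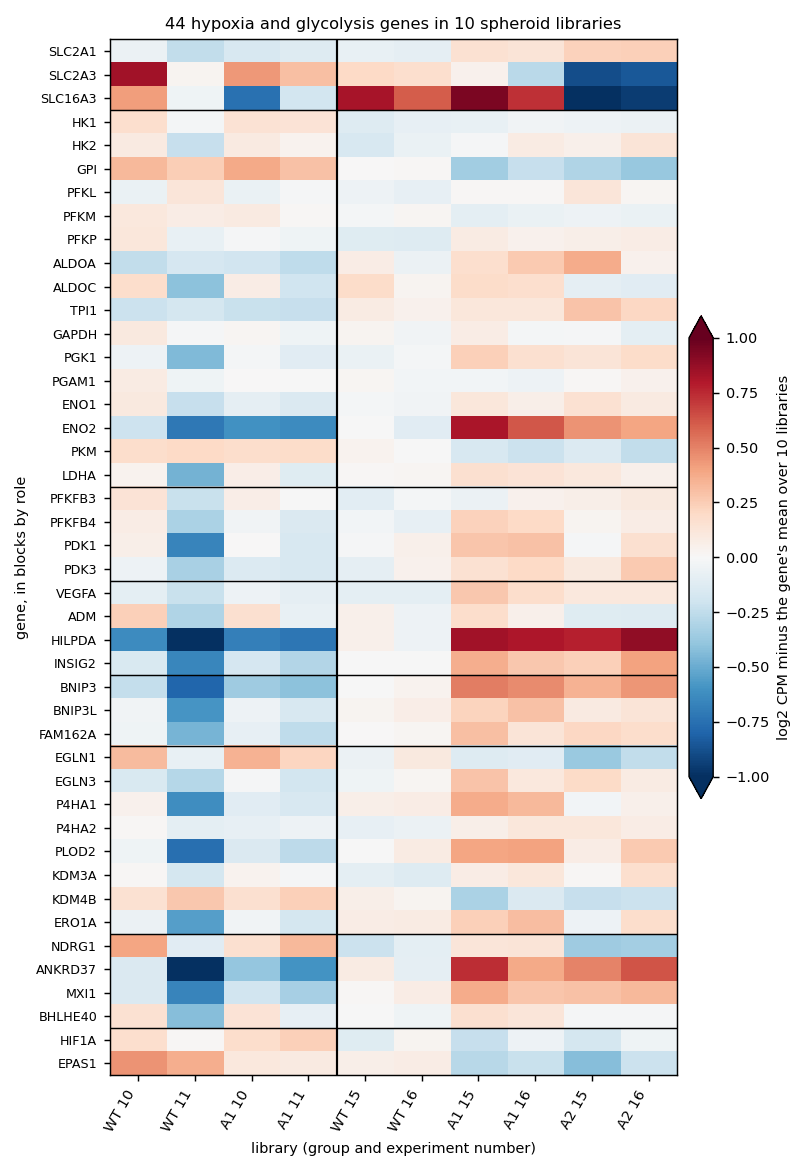
Heat map of 44 members (rows, in blocks by role) in 10 libraries (columns). Colour gives log2 CPM minus the gene's mean over the 10 libraries and saturates at 1. The column of WT 11 is the bluest, being the lowest library for 27 members. ENO2, HILPDA, ANKRD37 and BNIP3 are red in A1 and A2 of experiments 15 and 16, and SLC16A3 is red in A1 but not in A2 there.

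In experiments 15 and 16, clone A1 had higher levels than WT of ENO2, HILPDA, BNIP3, VEGFA and SLC2A1 and lower levels of GPI and KDM4B. These 7 of 44 members passed an adjusted p of 0.05 in edgeR's quasi-likelihood test (8.24% of all genes did). In the higher direction 5 members (11.4%) compare with 3.95% of all genes, and in the lower direction 2 members (4.55%) with 4.29%. The median log2 fold change over the 44 members was 0.18, against 0.0031 over all genes, and 35 members had a positive value. A1 libraries lay wholly above WT libraries for 31 members (70.5%, all genes 27.4%) and wholly below for 8 (18.2%, all genes 26.4%).

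HILPDA, a lipid droplet protein that slows the breakdown of stored fat, had 71.9 and 67.3 CPM in WT 15 and WT 16 and 125 and 122 CPM in A1 15 and A1 16. The fold change was 1.77 (log2 0.82 ± 0.15 SE, n = 2 libraries a group, edgeR adjusted p = 0.00797). ENO2, the neuronal-type enolase, rose from 116 and 108 CPM to 206 and 179 CPM, or 1.72-fold (log2 0.78 ± 0.12, edgeR adjusted p = 0.00166). The A1 libraries were clear of WT in both genes. ENO1, the main enolase, had 2999 and 2980 CPM in WT and 3294 and 3181 CPM in A1 (log2 0.12 ± 0.084, edgeR adjusted p = 0.461). BNIP3, a mitophagy receptor on the outer mitochondrial membrane, had 237 and 243 CPM in WT and 340 and 330 CPM in A1 (1.395-fold, edgeR adjusted p = 0.0434), and its paralog BNIP3L 105 and 108 CPM in WT and 120 and 126 CPM in A1 (log2 0.21 ± 0.13, edgeR adjusted p = 0.359). VEGFA, the angiogenic growth factor, rose from 82.1 CPM in both WT libraries to 106 and 99.3 CPM (1.25-fold, edgeR adjusted p = 0.0086). SLC2A1, the main glucose transporter, rose from 218 and 216 CPM to 255 and 252 CPM (1.17-fold, edgeR adjusted p = 0.0491).

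Most enzymes of the glycolytic chain did not pass the test in A1, nor did most of all genes (8.24% called). Of 16 glycolytic enzymes, 1 was called higher (ENO2, all genes 3.95%) and 1 lower (GPI, all genes 4.29%). The other 14 did not pass, with log2 fold changes from −0.20 (PKM) to 0.25 (PGK1) among these. GPI, which turns glucose-6-phosphate into fructose-6-phosphate, fell from 601 and 602 CPM to 470 and 509 CPM (log2 −0.30 ± 0.065, edgeR adjusted p = 0.00921). GAPDH had 5217 and 4982 CPM in WT and 5386 and 5060 CPM in A1, so that its libraries overlapped. All 4 regulators of flux had positive values from 0.053 (PFKFB3) to 0.27 (PFKFB4) and none passed by edgeR, 2 having an unadjusted p under 0.05. ANKRD37, a low-count target, had 4.31 and 3.84 CPM in WT and 6.79 and 5.30 CPM in A1 (log2 0.57 ± 0.22, edgeR adjusted p = 0.131). KDM4B, a histone demethylase that uses oxygen, fell from 98.7 and 96.9 CPM to 76.4 and 86.1 CPM (log2 −0.27 ± 0.074, edgeR adjusted p = 0.0347). EGLN3 had 23.1 and 24.1 CPM in WT and 29.0 and 25.5 CPM in A1 (log2 0.21 ± 0.094, edgeR adjusted p = 0.197), and EGLN1 161 and 179 CPM in WT and 153 and 155 CPM in A1 (log2 −0.14 ± 0.10, edgeR adjusted p = 0.463).

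The number called in A1 turned on which libraries set the spread. All 10 libraries shared 1 estimate of the variation between libraries of a group, and WT 10 and WT 11 entered this comparison only through it. Without WT 10 or without WT 11, 22 members were called, 17 higher and 5 lower, and 23 in a fit of the 4 libraries alone, while all genes called went from 1147 to 2000 without WT 10 and to 1852 in that fit. Members added in that fit included PLOD2 (log2 0.36), MXI1 (0.28), P4HA1 (0.27), NDRG1 (0.27), PFKFB4 (0.27), PDK1 (0.26) and PGK1 (0.24). Under a replicate block on experiment number 18 members were called in A1 and all genes called rose to 2411, the members added including PKM (edgeR adjusted p = 0.00226), PGK1 (0.00668), PFKFB4 (0.00731) and MXI1 (0.00867). Without WT 15, without WT 16 or without A1 15, ENO2 alone was called, while all genes called fell to 343, 453 and 390. ENO2 was the only one of the 7 called under each of 17 alternatives. SLC2A1 was no longer called in 9 of them. HILPDA had an edgeR adjusted p of 0.0649, 0.093 and 0.0554 without WT 15, WT 16 and A1 15, and VEGFA one of 0.0808, 0.0738 and 0.0962.

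Of the HIF alpha subunits, EPAS1 had less mRNA in A2 than in WT. EPAS1 had 15.3 and 15.4 CPM in WT 15 and WT 16, 12.1 and 12.6 CPM in A1 15 and A1 16 and 10.9 and 12.6 CPM in A2 15 and A2 16. The A2 difference passed the test (log2 −0.38 ± 0.098, edgeR adjusted p = 0.0131) and the A1 difference did not (log2 −0.32 ± 0.098, edgeR adjusted p = 0.0549), although it passed under a replicate block on experiment number (edgeR adjusted p = 0.0168). HIF1A had 160 and 176 CPM in WT, 147 and 167 CPM in A1 and 153 and 168 CPM in A2, with overlap among all 3 groups. HIF activity depends mainly on the stability of these proteins, which the counts do not measure.

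In clone A2 of the same experiments, HILPDA, ENO2, SLC2A1 and TPI1 were higher than in WT, and the transporters SLC16A3 and SLC2A3, the HIF subunit EPAS1, the glycolytic enzymes GPI and PKM and the oxygenases EGLN1 and KDM4B were lower. These were 11 of 44 members called (all genes 16.4%), 4 higher and 7 lower. In the higher direction 9.09% of the members compare with 7.33% of all genes, and in the lower direction 15.9% with 9.07%. The median log2 fold change was 0.12, against 0.0071 over all genes, and 29 members had a positive value. A2 libraries lay above WT for 24 members (54.5%, all genes 31.0%) and below for 12 (27.3%, all genes 29.7%). The comparison shares its WT libraries with that of A1, so the values of the clones are given side by side and not as separate support.

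HILPDA had 119 and 129 CPM in A2 (1.78-fold, log2 0.83 ± 0.15, edgeR adjusted p = 0.00363) and ENO2 159 and 154 CPM (1.396-fold, log2 0.48 ± 0.12, edgeR adjusted p = 0.0161). SLC2A1 had 269 and 271 CPM (1.24-fold, edgeR adjusted p = 0.0042), and TPI1 1463 and 1389 CPM against 1269 and 1241 CPM in WT (1.14-fold, edgeR adjusted p = 0.042). These 4 genes were clear of both WT libraries. BNIP3 had 302 and 323 CPM (log2 0.38 ± 0.13, edgeR adjusted p = 0.0697) and VEGFA 94.2 and 94.3 CPM (log2 0.20 ± 0.069, edgeR adjusted p = 0.0598), both above WT without passing the test in the main fit. Under a replicate block on experiment number 23 members were called in A2, while all genes called rose from 2283 to 3673.

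The transporters stood apart among the genes lower in A2. SLC16A3 had 2.27 and 1.95 CPM in WT and 0.426 and 0.664 CPM in A2 (log2 −1.93 ± 0.30, edgeR adjusted p = 0.000413), where the lowest member count of 19 was found. SLC2A3, a high-affinity glucose transporter, had 36.1 and 35.2 CPM in WT and 16.9 and 17.4 CPM in A2 (log2 −1.06 ± 0.25, edgeR adjusted p = 0.0287). In A1 the same genes had 2.47 and 2.13 CPM and 32.2 and 25.98 CPM. Both transporters were below WT in each A2 library by more than their WT libraries differed. The other members lower in A2 were EPAS1, GPI (485 and 460 CPM, log2 −0.35 ± 0.065, edgeR adjusted p = 0.0015), EGLN1, KDM4B (81.0 and 81.8 CPM, log2 −0.26, edgeR adjusted p = 0.0223) and PKM. EGLN1, the main oxygen-sensing hydroxylase, had 129 and 141 CPM in A2 (log2 −0.33 ± 0.10, edgeR adjusted p = 0.0396). EGLN3 had 27.2 and 25.2 CPM in A2 (log2 0.15 ± 0.094, edgeR adjusted p = 0.309). PKM, pyruvate kinase, had 1464 and 1423 CPM in WT and 1300 and 1207 CPM in A2 (log2 −0.20 ± 0.061, edgeR adjusted p = 0.0315). With either WT 10 or WT 11 left out, 22 members were called in A2 (14 higher and 8 lower), and with WT 15, WT 16, A2 15 or A2 16 left out, 4, 3, 5 and 5. All genes called went from 2283 to 3198 without WT 10 and 3199 without WT 11, and to 1067, 1190, 1315 and 1020 without those 4 libraries in turn. SLC2A1 and SLC16A3 were called under each of 17 alternatives.

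**Figure D3:**
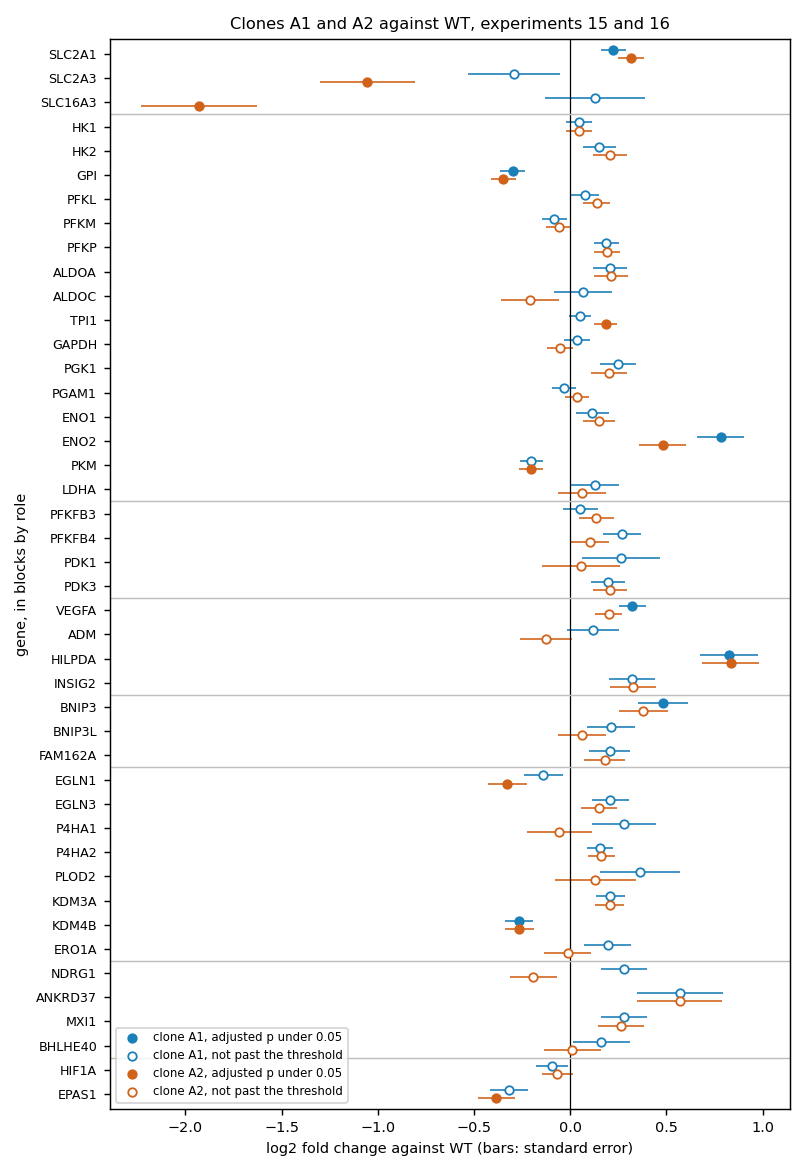
Log2 fold change against WT in experiments 15 and 16 for 44 members (rows), clone A1 in blue and clone A2 in orange, with bars for the standard error and filled points for an edgeR adjusted p under 0.05. HILPDA (0.82 and 0.83) and ENO2 of A1 (0.78) lie farthest to the right, and SLC16A3 (−1.93) and SLC2A3 (−1.06) of A2 farthest to the left.

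For several called members the neighbouring genes had a median away from 0. HILPDA (gene 29923) lies on chromosome 7 from 128455878 to 128458418, GPI (gene 2821) and KDM4B (gene 23030) on chromosome 19 from 34359718 and from 4969113, EGLN1 (gene 54583) on chromosome 1 from 231363756 and PKM (gene 5315) on chromosome 15 from 72199029 (GRCh38). The median log2 fold change of A1 against WT over the genes of the same 20 Mb window was −0.17 around GPI (158 genes), −0.19 around KDM4B (425 genes), 0.20 around HILPDA (81 genes) and 0.16 around BNIP3 (58 genes). In A2 it was −0.13, −0.16, 0.22 and 0.22 around the same genes, −0.30 around EGLN1 (107 genes) and −0.19 around PKM (153 genes). Around ENO2, TPI1, GAPDH and SLC2A3, which share 1 window of 118 genes on chromosome 12, it was 0.0026 in A1 and 0.019 in A2. With the regional median removed (limma-trend), 3 members were called in A1 (ENO2 0.77, VEGFA 0.34 and EPAS1 −0.36) and 5 in A2 (SLC2A1 0.30, SLC16A3 −1.81, PGAM1 0.21, INSIG2 0.33 and EPAS1 −0.38), while all genes called went from 1147 to 759 in A1 and from 2283 to 1471 in A2. Calls were also lost where the regional median was near 0 and the fold changes moved little. In A2 these were ENO2 (log2 0.46, limma-trend adjusted p = 0.122), SLC2A3 (−1.07, limma-trend adjusted p = 0.0671) and TPI1 (0.16, limma-trend adjusted p = 0.0772), and in A1 SLC2A1 (0.23, limma-trend adjusted p = 0.0509, window median 0.015). HILPDA then had log2 values of 0.63 in A1 and 0.61 in A2 (limma-trend adjusted p = 0.116 and 0.0881), most of its change. In A2 EGLN1 then had −0.026 (limma-trend adjusted p = 0.896) and PKM −0.016 (limma-trend adjusted p = 0.908). The windows around GPI, KDM4B, HILPDA, BNIP3, EGLN1 and PKM also shifted in the same direction in WT between the experiment pairs (below). The part of the shared regional shift in these genes was not tested otherwise.

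Between the clones, 2 of 44 members differed (4.55%, all genes 4.14%), both lower in A2 (all genes 3.07% lower and 1.07% higher). A2 libraries lay below A1 libraries for 17 members (38.6%, all genes 24.3%) and above for 6 (13.6%, all genes 24.3%). SLC16A3 was 0.240-fold in A2 relative to A1 (log2 −2.06 ± 0.30, edgeR adjusted p = 0.000451). NDRG1, a stress-induced protein of cell growth and differentiation, had 116 and 126 CPM in WT, 147 CPM in both A1 libraries and 105 and 107 CPM in A2 (A2 against A1 log2 −0.47 ± 0.12, edgeR adjusted p = 0.0436). NDRG1 was thus on either side of WT in the clones, although neither clone passed against WT (edgeR adjusted p = 0.186 and 0.323). The NDRG1 call was lost when any library of experiments 15 and 16 was left out (edgeR adjusted p 0.0533 to 0.294) and under a replicate block on experiment number (edgeR adjusted p = 0.255), whereas SLC16A3 was called in each of the 17 alternatives. P4HA1 (227 and 219 CPM in A1, 172 and 182 CPM in A2), PLOD2 (403 and 406 against 323 and 367 CPM) and ENO2 (log2 −0.30 ± 0.12, edgeR adjusted p = 0.23) had lower values in A2 without passing. For HILPDA the difference of the clones was 0.0099 ± 0.15 on the log2 scale and for SLC2A1 0.089 ± 0.067. Without WT 10, or without WT 11, 7 members were called, all lower in A2, SLC2A3, ALDOC, ENO2, P4HA1 and PLOD2 being added, while all genes called went from 576 to 957 and 959.

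In experiments 10 and 11, no member was called between A1 and WT by edgeR (0 of 44, all genes 0.194%) or by DESeq2, and 2 had an unadjusted p under 0.05 in edgeR. These were EPAS1 (19.98 and 18.8 CPM in WT 10 and WT 11, 15.8 and 15.6 CPM in A1 10 and A1 11, log2 −0.31 ± 0.095, edgeR adjusted p = 0.319) and SLC16A3 (1.71 and 1.24 against 0.767 and 1.13 CPM, edgeR adjusted p = 0.452). The median log2 fold change was 0.061. ENO2 had 101 and 71.1 CPM in WT and 76.5 and 75.4 CPM in A1 (log2 −0.18 ± 0.12, edgeR adjusted p = 0.592). HILPDA had 45.1 and 28.7 CPM in WT and 43.3 and 42.2 CPM in A1 (log2 0.22 ± 0.16, edgeR adjusted p = 0.61), and BNIP3 202 and 137 against 185 and 179 CPM. In each the A1 libraries lay between the WT libraries. HIF1A had 195 and 175 CPM in WT and 195 and 205 CPM in A1. EGLN1 had 209 and 159 CPM in WT and 213 and 194 CPM in A1, and EGLN3 21.3 and 19.5 CPM in WT and 23.6 and 20.9 CPM in A1.

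The result of this pair depended on WT 10 and WT 11. Within experiment 10 the median difference of A1 minus WT was −0.049 with 13 of 44 members positive, and within experiment 11 it was 0.19 with 35 positive. In experiments 15 and 16 it was 0.16 and 0.15 with 34 and 35 positive, and for A2 minus WT 0.082 and 0.10 with 26 and 30 positive. Without WT 10, 19 members were called higher in A1 of experiments 10 and 11, among them HILPDA, PDK1, P4HA1 and PLOD2 (edgeR adjusted p = 0.00109 for each), and the median was 0.20. All genes called went from 27 to 1361 at the same time, so the gain was not limited to the members. Without WT 11, 1 member was called (ENO2, log2 −0.41, edgeR adjusted p = 0.0428) and the median was −0.083.

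**Figure D4:**
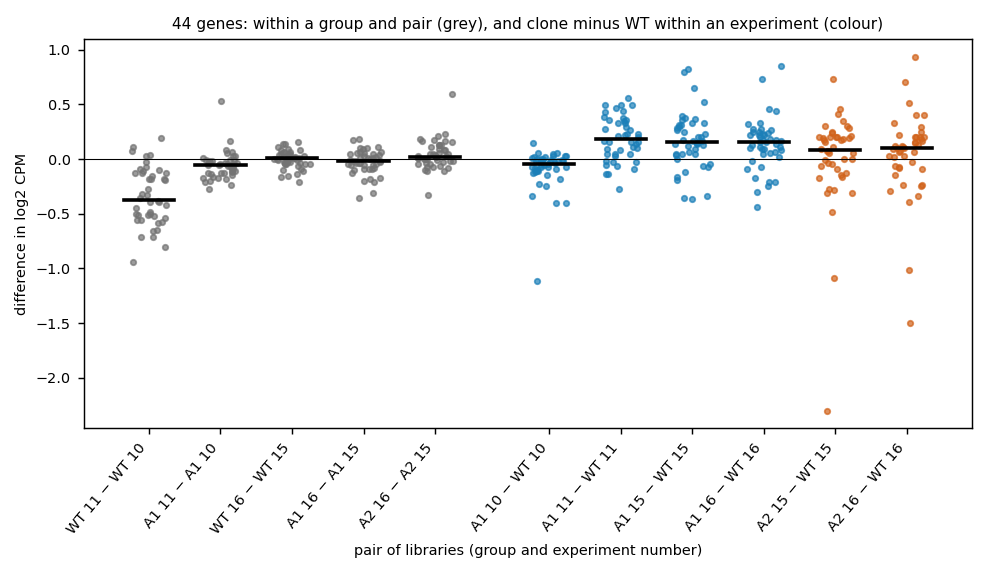
Difference in log2 CPM between pairs of libraries for 44 members (points) with the median as a line. In grey are the libraries of 1 group and pair, where WT 11 minus WT 10 has a median of −0.37 and the others lie near 0, and in colour a clone minus WT within an experiment, with medians from −0.049 (A1 in experiment 10) to 0.19 (A1 in experiment 11).

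WT itself differed between the experiment pairs. In experiments 15 and 16 against 10 and 11, 8 of 44 members were called (18.2%, all genes 16.4%), 6 higher (13.6%, all genes 8.61%) and 2 lower (4.55%, all genes 7.74%). The pair cannot be told apart from anything else that changed between these experiments, and the comparison shares WT libraries with those above. Of 8 listed luminal markers, 2 were called higher and 2 lower, and of 5 markers of other cells 1 was called lower. Mitochondrial genes took 7.79% and 8.41% of counts in WT 10 and WT 11 and 10.7% and 9.92% in WT 15 and WT 16. The part of these in the member differences was not tested. HILPDA had the largest change, from 45.1 and 28.7 CPM to 71.9 and 67.3 CPM (log2 0.92 ± 0.15, edgeR adjusted p = 0.00314), and was called under each of 17 alternatives. BNIP3 rose from 202 and 137 CPM to 237 and 243 CPM (log2 0.50 ± 0.13, edgeR adjusted p = 0.0232). MXI1, an antagonist of MYC, rose from 95.6 and 66.8 CPM to 107 and 111 CPM (log2 0.42 ± 0.12, edgeR adjusted p = 0.0288). INSIG2, a brake on sterol synthesis, had 40.1 and 28.3 CPM and then 44.3 and 44.5 CPM (log2 0.38 ± 0.12, edgeR adjusted p = 0.0451). ENO2 had log2 0.38 ± 0.12 (edgeR adjusted p = 0.0495), and TPI1 rose from 1037 and 1066 CPM to 1269 and 1241 CPM (log2 0.26 ± 0.059, edgeR adjusted p = 0.00798).

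GPI and EPAS1 were lower in WT of experiments 15 and 16. GPI had 747 and 709 CPM and then 601 and 602 CPM (log2 −0.28 ± 0.065, edgeR adjusted p = 0.0088), and EPAS1 had log2 −0.34 ± 0.095 (edgeR adjusted p = 0.0245). The same windows of neighbouring genes as above also shifted in WT between the pairs. Their medians were 0.25 around HILPDA, 0.24 around BNIP3 and −0.15 around GPI. The values were −0.21 around KDM4B and −0.19 around EGLN1, which were not called. Around ENO2 and TPI1 the median was 0.0046, around INSIG2 −0.019, around MXI1 −0.05 and around EPAS1 0.086. With the regional median removed (limma-trend), 6 members were called, and all genes called went from 2276 to 1817. HIF1A (log2 −0.14 ± 0.081), EGLN1 (−0.11 ± 0.10) and EGLN3 (0.21 ± 0.095) were not called. The median of the members was 0.065, and it was 0.21 without WT 10 (23 called) and −0.056 without WT 11 (10 called, 3 higher and 7 lower). All genes called went from 2276 to 3658 without WT 10 and to 1700 without WT 11. Without WT 11, ENO2, INSIG2 and MXI1 were not called (edgeR adjusted p = 0.265, 0.323 and 0.13), and NDRG1 was called lower (log2 −0.55, edgeR adjusted p = 0.000122). Without WT 15 or without WT 16 HILPDA alone was called, while all genes called fell to 1002 and 820.

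The test of the difference of the A1 effect between the pairs called 1 member, ENO2 (2.27%, all genes 2.50%, of which 1.56% with a more positive and 0.941% with a more negative A1 effect in experiments 15 and 16). The A1 effect on ENO2 was −0.18 in experiments 10 and 11 and 0.78 in experiments 15 and 16, a difference of 0.96 ± 0.17 (log2, edgeR adjusted p = 0.0112). HILPDA (0.61 ± 0.22, edgeR adjusted p = 0.198) and GPI (−0.35 ± 0.091, edgeR adjusted p = 0.0528) did not pass. The call of ENO2 was lost without WT 16 (edgeR adjusted p = 0.0711), without A1 15 (0.0573) and with the regional median removed, where the difference was 0.91 (limma-trend adjusted p = 0.113). Without WT 11, 11 members were called, all with a more positive A1 effect in experiments 15 and 16, among them HILPDA (0.90) and BNIP3 (0.62), while all genes called went from 348 to 538. Without WT 10, 4 members were called, ENO2 (0.69) with a more positive effect and EGLN1 (−0.49), GPI (−0.38) and SLC2A3 (−0.63) with a more negative one, and all genes called went to 1123. The median difference over the members was 0.086 with all libraries, 0.27 without WT 11 and −0.082 without WT 10. A1 of experiments 10 and 11 also had more SAMHD1 mRNA than A1 of experiments 15 and 16 (22.5 and 23.0 against 6.44 and 6.15 CPM), and the part of this in the difference was not tested.

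**Figure D5:**
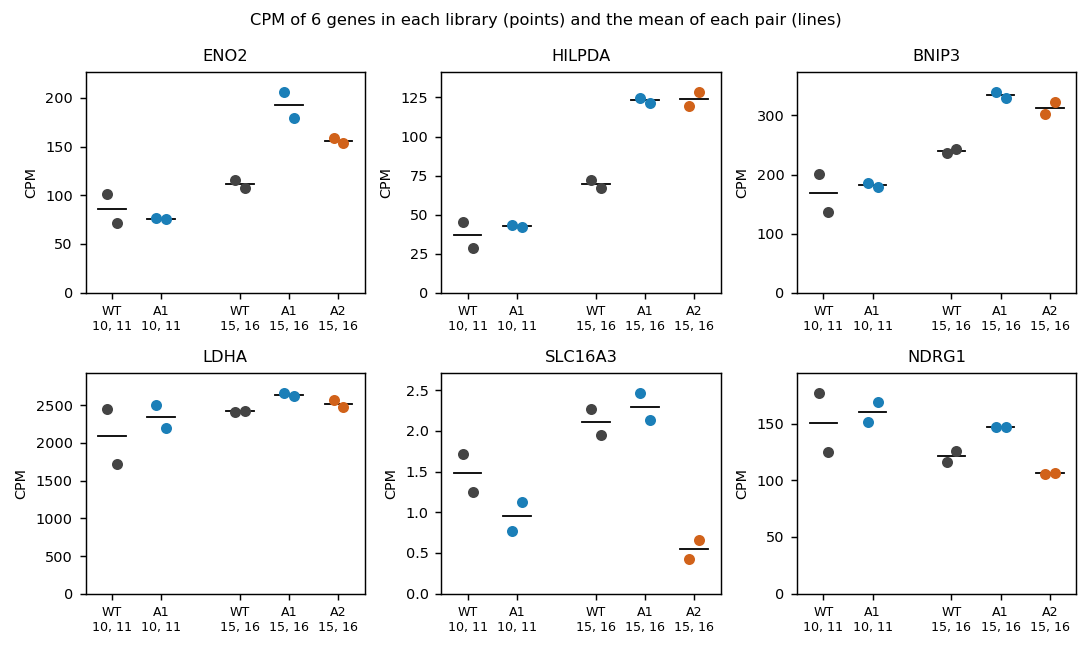
CPM of ENO2, HILPDA, BNIP3, LDHA, SLC16A3 and NDRG1 in each of 10 libraries (points, grey for WT, blue for A1, orange for A2) with the mean of the 2 libraries as a line. HILPDA was at 28.7 to 45.1 CPM in experiments 10 and 11, at 67.3 and 71.9 CPM in WT of experiments 15 and 16 and at 119 to 129 CPM in the clones there, and SLC16A3 was lowest in A2.

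A separate list of 30 other HIF targets, with 29 in the table, was examined in the same comparisons. In A1 against WT of experiments 15 and 16, 7 were called higher (24.1%, all genes 3.95%) and 2 lower (6.90%, all genes 4.29%), with a median of 0.24. The largest values among the called genes were those of PPP1R3C, a glycogen-targeting subunit of protein phosphatase (log2 0.71 ± 0.20, edgeR adjusted p = 0.0419), WSB1 (0.65 ± 0.088, edgeR adjusted p = 0.000252), STC2 (0.57 ± 0.15, edgeR adjusted p = 0.0419) and RIMKLA (0.53 ± 0.10, edgeR adjusted p = 0.00361). In A2, 6 were called higher (20.7%, all genes 7.33%) and 2 lower (6.90%, all genes 9.07%) with a median of 0.17, led by BHLHE41, a transcriptional repressor (0.78 ± 0.19, edgeR adjusted p = 0.0215). WSB1 and PPP1R3C were lower in A2 than in A1 (log2 −0.61 and −0.89, edgeR adjusted p = 0.000407 and 0.018). In experiments 10 and 11 none was called by edgeR (1 at an unadjusted p under 0.05), and in WT between the pairs 11 were called higher (37.9%, all genes 8.61%) and 2 lower (6.90%, all genes 7.74%). From WT 10 to WT 11, 27 of the 29 were lower, with a median of −0.29 on the log2 scale.

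Of 16 listed genes of HIF regulation, 1 was called in A1 (HSP90AB1, log2 −0.27, all genes 8.24%) and 6 in A2 (all genes 16.4%), 3 higher (all genes 7.33%) and 3 lower (all genes 9.07%). In A2 the coactivator gene CREBBP (0.36 ± 0.086, edgeR adjusted p = 0.00781), HIF1AN (0.31 ± 0.073, edgeR adjusted p = 0.00734), which hydroxylates HIF alpha, and ELOB (0.29 ± 0.095, edgeR adjusted p = 0.0458), of the same ubiquitin ligase as RBX1, were higher. EP300, the relative of CREBBP (−0.44 ± 0.087, edgeR adjusted p = 0.00248), CITED2, which competes with HIF for these coactivators (−0.62 ± 0.11, edgeR adjusted p = 0.00104), and RBX1, of the ubiquitin ligase that takes HIF alpha (−0.54 ± 0.085, edgeR adjusted p = 0.000442), were lower. Medians of neighbouring genes are given above for members only. The part of regional shifts in the genes of this list and of those below was not tested.

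The counts of the lists that follow are to be read against 8.24% of all genes called in A1 and 16.4% in A2. Of 13 genes of pyruvate and lactate entry into mitochondria, none was called in A1 (2 at an unadjusted p under 0.05 in edgeR) and 1 in A2, MPC2, a subunit of the pyruvate carrier (log2 −0.23 ± 0.075, edgeR adjusted p = 0.0475). Of 13 other listed genes of glycolysis and gluconeogenesis, PCK2, the mitochondrial phosphoenolpyruvate carboxykinase, was called in A1 (0.37 ± 0.086) and in A2 (0.39 ± 0.086). Of 14 genes of ATF4 and nutrient stress, none was called in A1 by edgeR (1 at an unadjusted p under 0.05) and 3 in A2, where ATF4 was lower (−0.36 ± 0.073) and DDIT3 and SESN2 higher. Of 20 proliferation genes, MCM7 was lower in A1 (−0.38 ± 0.061), and 1 was higher and 3 lower in A2 (all genes 7.33% and 9.07%), led by MCM5 (−0.63 ± 0.082).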

How the data were processed

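The authors aligned paired-end reads of poly(A) RNA (TruSeq stranded mRNA) to GRCh38 with HISAT2, and StringTie is also named in the submitters' notes. They deposited raw counts per NCBI gene and removed genes with a 0 count in a library, which leaves 13920 genes in 10 libraries (13885 with a symbol). RNA kits differ between the labels (Maxwell) and the study's methods (NucleoSpin). No column was left unmapped (0).

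All libraries were fitted together in edgeR 4.0.16 (R 4.3.3, TMM, robust quasi-likelihood), with 5 cells of 2 libraries (group by experiment pair) and Benjamini-Hochberg adjustment over all genes at 0.05. Levels are CPM, and differences of single libraries use a prior count of 2. Named were up to 12 called members a comparison, HIF1A, EPAS1, EGLN1, EGLN3, isoform pairs, and up to 4 called genes of each list. 1 of the lists is not reported here. Other members (such as LDHA, PLOD2 and ANKRD37), HIF1AN and ELOB were named after their values were seen. The members and lists were chosen with earlier results of these data known. Alternatives were DESeq2 1.42.0, limma-trend 3.58.1, RLE scaling, a mean count of 10, a replicate block, separate fits, removal of the median over a 20 Mb window (at least 20 genes), and leaving out each library. The scripts were tested on simulated data. Members' counts of 19 or more limit the precision of the lowest genes.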

Additional observations from a re-analysis of the deposited data

Results flagged for a closer look

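In 88 tests of the 4 WT or 4 A1 libraries of a member, 9 libraries stood apart from the other 3 by Dixon's criterion (10.2%, against 3.75% of the same tests over all genes; chance gives about 1 in 20). The members moved together in WT 11, so these are not separate results. In WT 11, LDHA was at 1720 CPM, PGK1 at 692, P4HA1 at 114, PDK1 at 75.3, VEGFA at 75.1 and FAM162A at 65.0 CPM, each below the other WT libraries, and PFKL at 226 CPM was above them. In WT 10, SLC2A3 at 55.9 CPM and NDRG1 at 177 CPM were above the other WT libraries.

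The A1 effect on ENO2 differed between the experiment pairs by 0.96 on the log2 scale (edgeR adjusted p = 0.0112). The clones differed in SLC16A3 (log2 −2.06, edgeR adjusted p = 0.000451) and NDRG1 (log2 −0.47, edgeR adjusted p = 0.0436).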

How the results depend on the processing

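Of 4488 values of single members under 17 alternatives, 4163 kept their side of the threshold, 196 passed it newly and 129 no longer did, and none of the called members changed sign. The numbers called below are in the order genes, then members, and the causes of changes were not tested unless named. With the replicate block, 2411 and 18 were called for A1 against WT in experiments 15 and 16, 3673 and 23 for A2 against WT, 1213 genes for A2 against A1, 382 genes for A1 against WT in experiments 10 and 11, and 1247 and 4 for the difference of the A1 effect, and NDRG1 was no longer called between the clones (edgeR adjusted p = 0.255). Deviations of libraries with the same number correlated at 0.084 in experiments 10 and 11 and at 0.10 to 0.15 in experiments 15 and 16. Since not all were over 0.1, the numbers were not taken as pairs in the main fit, although the block raised the counts of experiments 15 and 16 as given above. Separate fits, which estimate the spread from fewer libraries, gave 1852 and 23 (A1), 3202 and 23 (A2), 917 and 7 (A2 against A1), 12 genes (A1, experiments 10 and 11) and 1208 and 3 (WT between pairs). With the regional median removed there were 759 and 3 (A1), 1471 and 5 (A2), 335 genes (A2 against A1) and 0 members for the difference of the A1 effect. DESeq2 called 63 genes in A1 of experiments 10 and 11, and 535 and 2 for the difference of the A1 effect. Leaving out 1 library gave 343 to 2000 genes and 1 to 22 members (A1), 1020 to 3199 and 3 to 22 (A2), 268 to 959 and 1 to 7 (A2 against A1), 7 to 1361 and 0 to 19 (A1, experiments 10 and 11), 820 to 3658 and 1 to 23 (WT between pairs) and 88 to 1123 and 0 to 11 (difference of the A1 effect). The medians then ran from −0.083 to 0.20, −0.056 to 0.21 and −0.082 to 0.27 in the last 3 of these comparisons. With 2 libraries a cell, a lone library left by this step was assumed to vary like the others.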
